A study of Mus musculus with 26 samples.

Results

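The promoters of 9 genes of the Notch pathway were examined in mouse embryonic stem cells, 4 of them encoding receptors (Notch1, Notch2, Notch3 and Notch4) and 5 encoding ligands (Dll1, Dll3, Dll4, Jag1 and Jag2). The genes were taken by name from 26180 RefSeq genes with a start site. For each gene and each deposited table of regions, the region with the most overlap with 1.5 kb either side of a start site was kept. The libraries come from sequential chromatin immunoprecipitation (ChIP-reChIP) of formaldehyde-fixed chromatin from a low number of cells, digested with micrococcal nuclease. Chromatin pulled down for H3K4me3 was released and pulled down again for H3K27me3 (K4-K27), or in the opposite order (K27-K4), to recover fragments carrying both marks. The paper describes carry-over of signal from the first pulldown into the second as a common caveat that is hard to remove fully. It therefore advises using both orders. The part of carry-over in the results below was not tested. An in-line total of 10% was set aside after the first pulldown (total H3K4me3 and total H3K27me3).

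The 26 libraries fall into 3 sets of cells, all grown with serum and LIF. E14 is an established wild-type stem cell line, used here as a non-clonal culture, with replicates 1 and 2 of each ChIP and 1 IgG-IgG reChIP. The WT cells are the wild-type clones 57 and 58, with 1 IgG-IgG reChIP from clone 57. The DKO cells are clones 43 and 53, which lack both Dppa2 and Dppa4, and every WT or DKO library is 1 clonal line. E14 replicates 1 and 2 were sequenced in batches A and B and all the clones in batch C, so batch and cells cannot be told apart wherever E14 is set beside the clones. With 2 libraries a group, p-values measure the spread between these libraries. A library held between 6741244 and 47903464 reads (median 16875025), of which 30 to 17083 fell in the region of a member outside the IgG-IgG libraries. Of 9 stem cell genes (Nanog, Pou5f1, Sox2 and others), all had a total H3K4me3 region at the promoter in E14, WT and DKO cells, and only Esrrb had a total H3K27me3 region, in E14 and WT cells. Of 5 fibroblast genes, 4 had a total H3K4me3 region in E14 cells, with a median of 1.01 log2 RPM per kb against 1.39 for the stem cell genes, and of 4 primitive endoderm genes 3 had one and 3 a total H3K27me3 region. The part of other cells in the results was not tested. The deletion itself could not be checked from these values, because the Dppa2 promoter kept H3K4me3 in the DKO clones (2.86 ± 0.59, SD, n = 2, log2 RPM per kb) as in the WT clones (2.46 ± 0.87).

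Notch receptors are single-pass membrane proteins. A ligand on a neighbouring cell triggers cleavage of the receptor by ADAM proteases and then by gamma-secretase, and the freed intracellular domain enters the nucleus, binds RBPJ and turns on targets such as the Hes and Hey genes. Ligands are of the Delta type (Dll1, Dll3, Dll4) or the Jagged type (Jag1, Jag2). Bivalent promoters carry H3K4me3, the mark of CpG-rich and active promoters, together with H3K27me3, which is laid down by Polycomb repressive complex 2, and are typical of developmental genes in embryonic stem cells. A nucleosome with both marks can be told from a mixture of cells with 1 mark each only by the sequential pulldown, and in the totals of bulk samples fewer marked cells and less mark per cell cannot be told apart.

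In mm10 (GRCm38), the start sites are at position 26503822 of chromosome 2 for Notch1, 98013538 of chromosome 3 for Notch2, 32166890 of chromosome 17 for Notch3 and 34564295 of chromosome 17 for Notch4. Dll1 has a pair of start sites on chromosome 17, at 15375823 and 15376932. Dll3 starts at 28301785 of chromosome 7, Dll4 at 119325784 of chromosome 2, Jag1 at 137116520 of chromosome 2 and Jag2 at 112929495 of chromosome 12. Notch2, Notch4 and Dll4 lie on the plus strand and the others on the minus strand. A region cannot be given to 1 gene where start sites are close: that of the RefSeq gene Gm35978 is 105 bp from that of Notch1, and that of Gm14207 is 413 bp from that of Dll4. The wider reChIP regions used below also hold the start sites of Selenov, 10599 bp from that of Dll3, and of Mir6941, 8954 bp from that of Jag2. CpG content separates the members. Over 300 bases around the start site (250 before and 50 after), Jag2 held 63 CG dinucleotides, Notch2 41, Notch3 25, Notch1 23, Jag1 22, Dll4 17, Dll3 11 and Notch4 5, and the Dll1 start sites held 24 and 15. The median of 32841 RefSeq promoters of that length was 7, so that Notch4 alone among the members lay below it. Jag2 was at percentile 99.98 and Notch4 at 40.8. Over 3 kb centred on the start site, Notch4 had 1.30 CG per 100 bases and Jag2 9.33, against a median of 2.33. The RBPJ motif GTGGGAA, searched on both strands, was in 0 of the 10 member promoters of 300 bases and in 6.38% of all promoters. The 250 bases upstream of 4 members are given below from RefSeq (GRCm38), 5′ to 3′ on the gene's strand with each CG in capitals, to show the range from the CpG-poor Notch4 to the CpG-rich Jag2, with the receptor highest in H3K4me3 (Notch1) and the ligand highest in H3K27me3 (Dll4) in E14 cells. They cover chr2:26503823-26504072 (minus strand), chr17:34564045-34564294 (plus), chr2:119325534-119325783 (plus) and chr12:112929496-112929745 (minus), and hold 16, 4, 14 and 54 CG dinucleotides in turn.
Notch1: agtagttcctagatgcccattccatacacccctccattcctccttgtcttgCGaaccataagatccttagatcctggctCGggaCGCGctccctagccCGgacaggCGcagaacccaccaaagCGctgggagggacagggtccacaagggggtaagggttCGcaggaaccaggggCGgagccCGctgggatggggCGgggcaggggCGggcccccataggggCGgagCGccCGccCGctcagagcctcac
Notch4: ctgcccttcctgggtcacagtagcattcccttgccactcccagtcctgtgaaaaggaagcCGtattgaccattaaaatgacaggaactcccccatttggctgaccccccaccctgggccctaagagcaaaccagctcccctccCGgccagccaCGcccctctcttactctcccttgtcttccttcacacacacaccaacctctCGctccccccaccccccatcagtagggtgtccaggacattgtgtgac
Dll4: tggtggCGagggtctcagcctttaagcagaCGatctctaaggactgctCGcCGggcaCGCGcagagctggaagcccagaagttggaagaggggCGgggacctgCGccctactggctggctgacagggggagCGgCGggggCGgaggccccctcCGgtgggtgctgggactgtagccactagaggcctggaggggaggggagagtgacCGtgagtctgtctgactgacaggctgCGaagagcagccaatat
Jag2: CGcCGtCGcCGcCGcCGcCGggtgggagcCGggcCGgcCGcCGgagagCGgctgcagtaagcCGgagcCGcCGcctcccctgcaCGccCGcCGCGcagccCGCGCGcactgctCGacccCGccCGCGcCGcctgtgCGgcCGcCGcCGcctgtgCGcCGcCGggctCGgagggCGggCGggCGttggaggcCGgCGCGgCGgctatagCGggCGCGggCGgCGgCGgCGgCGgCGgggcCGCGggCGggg

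The presence of a region at these promoters was first compared between ChIPs. In E14 cells, all 9 genes had a region in the total H3K4me3, K4-K27 and K27-K4 tables, where 53.21%, 58.68% and 66.16% of all genes had one. Only Dll1, Dll3 and Notch2 had a total H3K27me3 region, against 12.06% of all genes. The Notch2 region covered 0.45 kb and began 1263 bp downstream of the start site. In the WT clones, 4 members had a total H3K27me3 region (Notch2, Dll1, Dll3 and Dll4, 15.77% of all genes), and in the DKO clones 6 did (Jag1 and Jag2 in addition, 17.60% of all genes). K27-K4 regions were listed at 7 members in the WT clones, where Notch3 and Notch4 had none, and at 8 in the DKO clones, where Notch4 had none, against 33.74% and 32.13% of all genes. In the DKO clones, Dll4 had no total H3K4me3 region and Notch4 no K4-K27 region at the promoter. The study's methods name EPIC2 for peak calling, but whether these tables hold its peaks is not given in the sources used here.

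**Figure D1:**
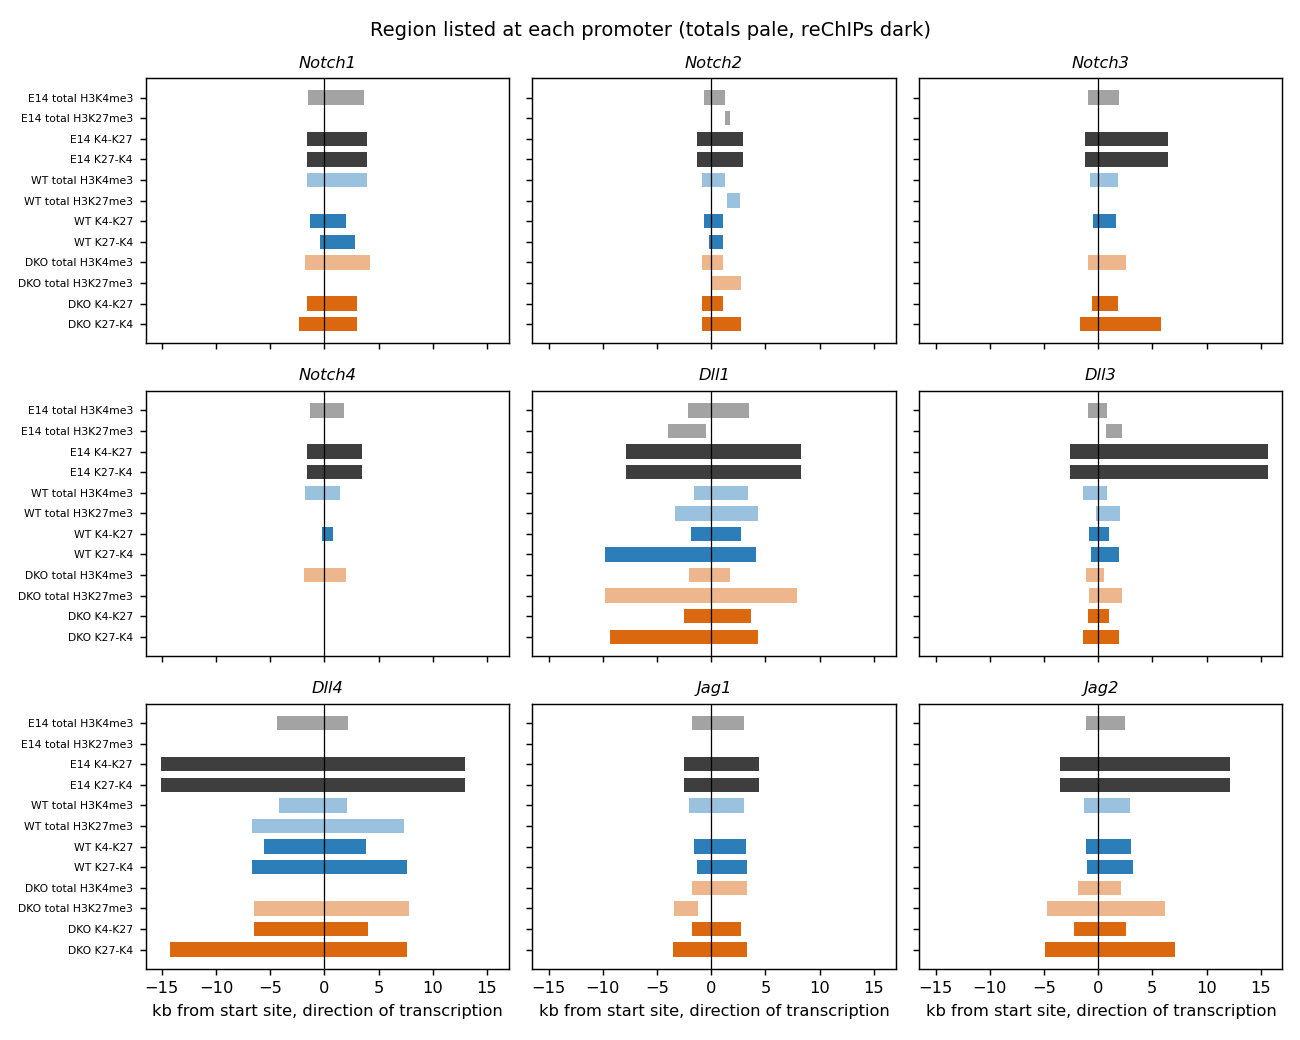
Regions listed at each promoter, drawn as bars by distance in kb from the start site (0 on the horizontal axis, cut at the edges of the plot), with 1 row per table of E14, WT and DKO cells. The E14 K27-K4 region at Dll4 spanned 28.05 kb and that at Notch2 4.2 kb, and total H3K27me3 bars are seen at Notch2, Dll1 and Dll3 in all 3 sets of cells.

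In the E14 reChIP tables the ligand regions were wider than the receptor regions, with the exception of Jag1. In the K27-K4 table, the region covered 28.05 kb at Dll4, 18.30 kb at Dll3, 16.20 kb at Dll1, 15.75 kb at Jag2 and 6.90 kb at Jag1, against 7.65 kb at Notch3, 5.55 kb at Notch1, 5.10 kb at Notch4 and 4.2 kb at Notch2. The K4-K27 table held regions with the same edges at these genes. The E14 H3K4me3 regions ran from 1.80 kb at Dll3 to 6.60 kb at Dll4. Levels in every library were therefore compared over the E14 K27-K4 regions, as log2 RPM per kb (reads scaled to library size, per kb of region, on a log2 scale), and again over the narrower E14 H3K4me3 regions where that changed an order. Percentiles are ranks among 14341 promoter regions of that table.

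Total H3K27me3 separated the Delta genes from the other members. Dll4, a ligand of endothelial cells, stood at 0.42 and 0.62 in E14 replicates 1 and 2, at 1.79 and 1.08 in WT clones 57 and 58, and at 1.69 and 1.5 in DKO clones 43 and 53. Dll1, which activates Notch during somite and neural development, stood at 0.55 and 0.23 in E14, 1.29 and 0.81 in WT and 1.68 and 1.27 in DKO. Dll3, a Delta protein that does not activate receptors on neighbouring cells, stood at 0.39 and 0.24, 1.11 and 0.44, and 1.32 and 1.2 in the same order. In each of the 6 libraries, all 3 Delta genes were above every Notch and Jagged gene. The highest of the others reached -0.50 and -0.27 in E14, 0.17 and -0.08 in WT and 0.84 and 0.84 in DKO. Less the IgG-IgG value, E14 means were -1.08 at Notch1, -0.65 at Notch3, -0.56 at Notch4, -0.24 at Jag1 and -0.73 at Jag2. Notch2 (0.41) and the Delta genes (0.59 to 0.69) were above IgG-IgG. In WT, Notch3 (-0.53), Notch4 (-0.33), Jag1 (-0.74) and Jag2 (-0.39) were below it. Notch1 (0.10), Notch2 (1.42) and the Delta genes (0.98 to 1.29) were above it there. The mean percentiles in E14 were 95.4 for Dll4, 91.6 for Dll1 and 89.5 for Dll3, and the ranges of neighbours among the 3 overlapped. Over the narrower regions, Dll1 and Dll4 kept this place in all 6 libraries, whereas Dll3 (0.53 and 0.28 in WT, 1.17 and 0.73 in DKO) fell below Jag2 (0.95 and 0.74, 1.65 and 1.66) in the clones.

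In total H3K4me3, Notch1, Jag1 and Notch3 had the highest means in each set of cells. Notch1, the receptor of T cell and neural development, was the highest member in each library over the E14 K27-K4 regions, at 1.51 and 1.72 in E14, 3.31 and 2.00 in WT and 2.97 and 2.57 in DKO. Jag1, the Jagged ligand of the inner ear, heart and bile ducts, followed by its mean, at 0.88 and 1.15, 3.13 and 1.69, and 2.19 and 2.06. These values and those of Notch3, a receptor of vascular smooth muscle (0.88 and 1.11, 2.67 and 1.36, 2.13 and 1.81), overlapped in each set of cells. Dll4 was the lowest member at 0.26 and 0.19, 1.17 and 0.37, and 0.48 and 0.52, with the exception of E14 replicate 1, where Dll3 was lower (0.16). In E14 cells Notch1 was at percentile 91.3 and Dll4 at 26.7. Over the narrower regions both ends of this order changed. There Notch1 (1.60 and 1.82 in E14, 3.42 and 2.10 in WT, 3.08 and 2.66 in DKO) was highest in E14 replicate 1 alone. Notch3 (1.28 and 1.86, 3.70 and 2.14, 3.11 and 2.69) was highest in 4 libraries and Jag2 (2.20) in WT clone 58. Dll4 was the lowest in 0 of the 6 libraries, with a mean of 1.33 in E14 above Notch4 (0.99) and Jag2 (1.08), and of 2.0 in WT above Notch4 (1.29). Neighbours in the order from Dll1 through Notch4 to Notch2, and from Jag2 (0.32 and 0.22 in E14) to Dll4, overlapped in E14 cells.

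**Figure D2:**
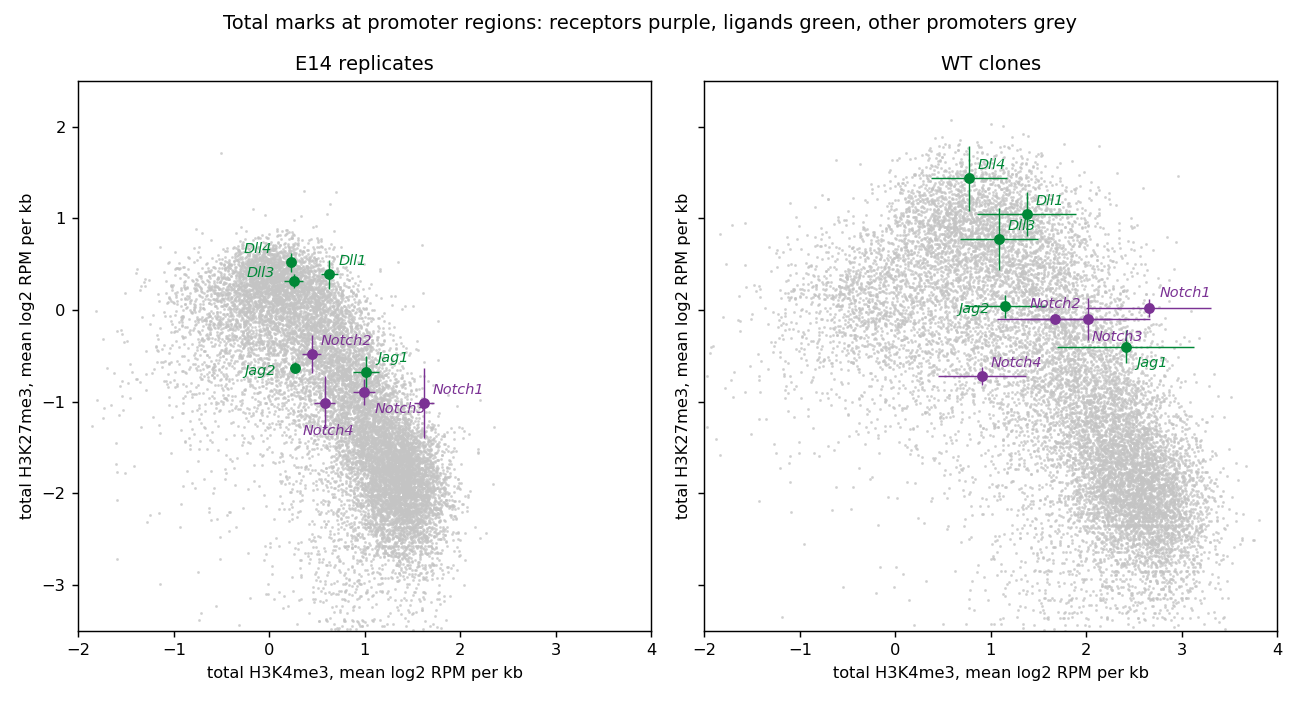
Total H3K4me3 (horizontal axis) against total H3K27me3 (vertical axis) in E14 and WT cells, both in log2 RPM per kb over the E14 K27-K4 regions, with all promoter regions in grey and bars for the range of 2 libraries. Dll1, Dll3 and Dll4 lie above the other members in H3K27me3, and Notch1 lies farthest to the right.

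The reChIPs placed Dll1 and Dll4 highest in E14 cells and Notch4 lowest in all cells. In K27-K4, Dll1 stood at 2.30 and 3.94 in E14 replicates 1 and 2, 3.08 and 2.39 in WT and 2.81 and 2.51 in DKO. Dll4 stood at 2.19 and 3.67, 3.11 and 2.34, and 2.67 and 2.38. Notch4, an endothelial receptor, stood at 0.25 and 1.27, -0.43 and -0.74, and -0.50 and 0.04. Notch4 was the lowest of the 9 in each of the 12 reChIP libraries (over the narrower regions Dll3 was lower in K4-K27 of DKO clone 43, at 1.21 against 1.42), and its K27-K4 values in the WT clones were below the IgG-IgG value there (-0.39). Notch1 stood at 2.07 and 3.37 in E14, 2.67 and 1.78 in WT and 2.38 and 2.29 in DKO. The mean E14 percentiles in K27-K4 were 96.9 for Dll1, 94.3 for Dll4, 90.0 for Notch1, 87.4 for Jag1, 81.7 for Dll3, 74.6 for Notch2, 65.8 for Jag2, 43.4 for Notch3 and 12 for Notch4. Neighbours in this order overlapped, and replicate 2 was above replicate 1 by more than 1 log2 unit at all 9 genes. Over the narrower regions the E14 means followed another order in the middle places, with 4.49 for Dll4, 4.18 for Dll1, 3.52 for Jag2, 3.10 for Dll3, 3.06 for Jag1, 3.02 for Notch2 and 2.83 for Notch1, and Notch3 (1.90) and Notch4 (1.04) remained last. Pou4f1, Tlx1 and Dlx3, promoters that the study used as bivalent, averaged 2.57, 2.65 and 2.62 in E14 K27-K4. The pluripotency gene Klf4, used as a promoter with H3K4me3 alone, averaged 2.53, and the active Gapdh promoter averaged 1.25 (0.87 to 1.62). In E14, Notch4 (mean 0.76, SD 0.72) and Notch3 (mean 1.48, SD 0.76) both overlapped Gapdh. In the clones Gapdh averaged -0.91 in WT and -0.64 in DKO. The means of Notch4 (-0.59 and -0.23) and of Notch3 (1.15 and 1.92) were above Gapdh there.

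In K4-K27, the same libraries gave Dll1 2.17 and 2.74 in E14, 3.02 and 2.32 in WT and 2.68 and 2.05 in DKO. Notch2, a receptor of marginal zone B cells and liver, gave 0.96 and 1.73, 2.81 and 1.55, and 2.72 and 1.76. Notch3 gave -0.14 and 1.04, 2.54 and 2.05, and 2.67 and 2.08. Notch1 led in WT (3.64 and 2.88), where its percentile was 94.6 against 74.8 for Dll1, while in E14 cells Dll1 (percentile 96.3) and Dll4 (96.1) overlapped above Notch1 (82.9). Over the narrower regions Notch1 did not lead in WT (3.77 and 2.99): Jag2 (4.35 and 3.53), Dll1 (4.25 and 3.45) and Dll4 (4.13 and 3.63) were above it in both clones. The bivalent Pou4f1, Tlx1 and Dlx3 averaged 2.48, 2.08 and 1.61 in WT K4-K27, and Gapdh averaged 1.54. The stem cell genes without a total H3K27me3 region ran from 1.48 (Zfp42) to 3.44 (Utf1), with Klf4 at 3.30. A high K4-K27 value in WT alone thus did not separate these kinds of promoter. Jag2, a ligand of limb and inner ear development, gave 0.92 and 1.32, 2.32 and 1.72, and 2.43 and 1.65. At Jag2 the WT and DKO values overlapped. Over IgG-IgG, measured once in E14 and once in WT cells and without replication, the mean K4-K27 values of the 9 genes were higher by 0.32 (Notch4) to 2.76 (Dll1) in E14 and by 0.66 (Notch4) to 3.69 (Notch2) in WT. In E14 replicate 1, Notch4 was below IgG-IgG (-0.26) and Notch3 close to it (0.10). In replicate 2 they were above it by 0.90 and 1.28.

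**Figure D3:**
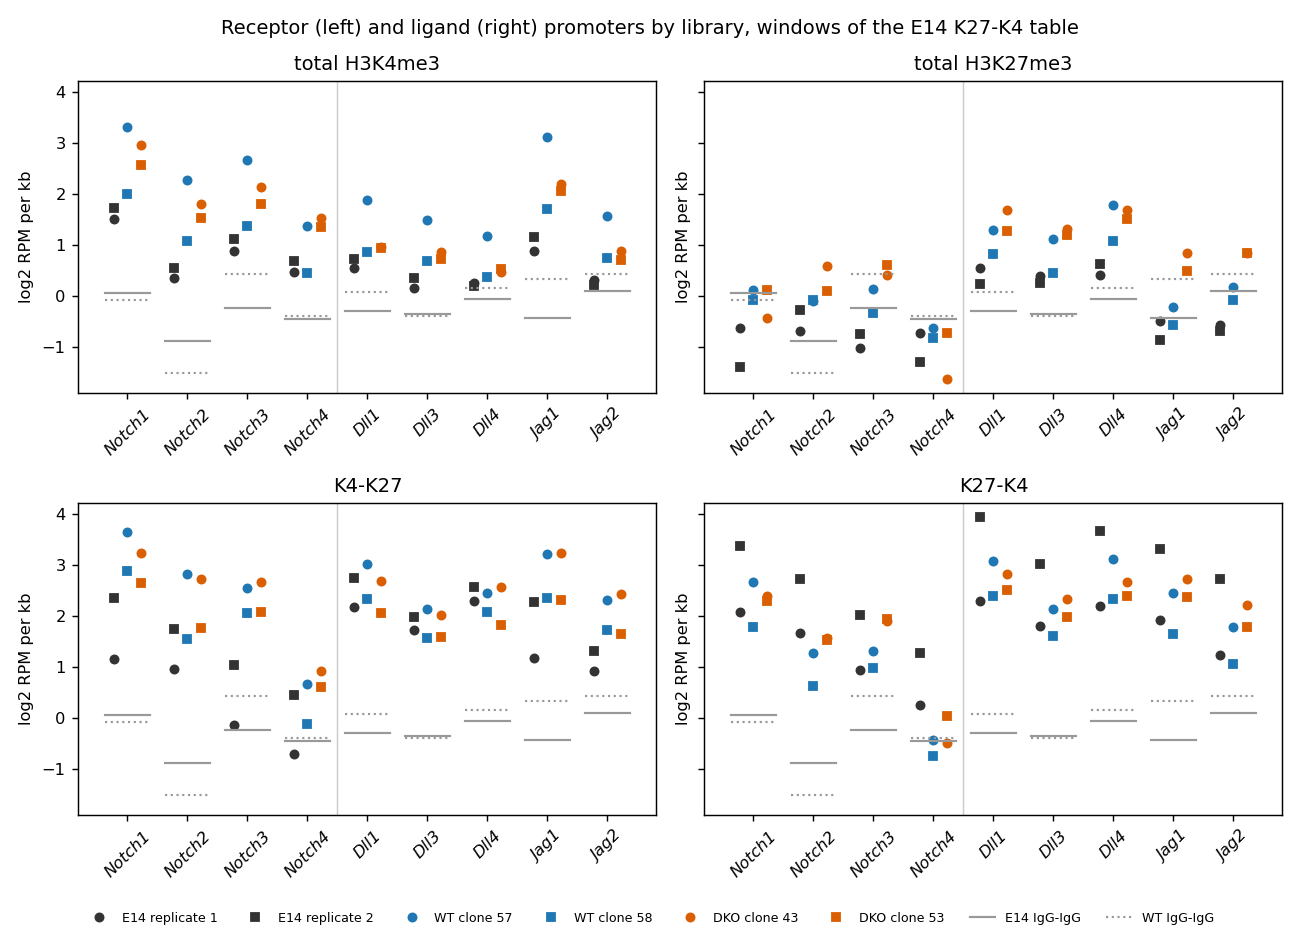
Log2 RPM per kb of each gene over its E14 K27-K4 region, in a panel for each ChIP, with 1 point per library of E14, WT and DKO cells and grey lines for IgG-IgG. In the total H3K27me3 panel the 3 Delta genes stand above the rest, and in both reChIP panels Notch4 is lowest.

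Receptors and ligands were compared by the median of each class in each library, as a description without a test because members of a class are not replicates. In total H3K27me3 the receptor median minus the ligand median was -1.10 and -1.25 log2 units in E14 replicates 1 and 2, -1.10 and -0.64 in WT and -1.33 and -1.10 in DKO. The mean was -1.18 ± 0.11 in E14, -0.87 ± 0.33 in WT and -1.22 ± 0.16 in DKO (SD, n = 2 each). The Delta genes set the ligand side more than the Jagged genes. In E14 replicates 1 and 2 the mean of Jag1 and Jag2 was -0.53 and -0.78, beside receptor medians of -0.71 and -1.02, and in WT it was -0.03 and -0.33 beside 0.01 and -0.20. In DKO clones 43 and 53 it was 0.84 and 0.66 beside -0.02 and 0.10. Total H3K4me3 had the opposite sign, with the receptors higher by 0.45 ± 0.13, 0.69 ± 0.29 and 1.02 ± 0.09. In K27-K4 the difference was -0.78 ± 0.24, -1.0 ± 0.22 and -0.79 ± 0.21. All 6 libraries of each of these 3 ChIPs had the same sign. Over the regions that each table lists, the H3K27me3 difference was -0.16 in E14 (1 receptor and 2 ligands listed) and -0.67 in DKO (1 and 5), and that of K27-K4 in WT was -0.43 (2 and 5). K4-K27 did not give 1 sign: the difference was -1.10 ± 0.31 in E14, -0.02 ± 0.36 in WT, where the clones disagreed (0.23 and -0.27), and 0.11 ± 0.02 in DKO. Over the narrower E14 H3K4me3 regions, the H3K4me3 difference in E14 was 0.06, and that of K4-K27 was -0.74 in WT and -0.40 in DKO, so these values depend on the regions used. In IgG-IgG the difference was -0.04 in E14 and -0.38 in WT.

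Total H3K4me3 and total H3K27me3 were compared within each promoter with limma, a linear model with a moderated variance fitted across all regions of the reChIP tables. A region was called at a Benjamini-Hochberg adjusted p under 0.05 and a log2 difference above 1 in size. In E14 cells, 4 of 9 members were called higher in H3K4me3, where 37.5% of 38918 regions were. Notch1 was higher by 2.63 log2 units (H3K27me3 -0.63 and -1.40, H3K4me3 1.51 and 1.72, adjusted p = 9.56e-05), Notch3 by 1.88 (adjusted p = 0.000239), Jag1 by 1.70 (0.000281) and Notch4 by 1.59 (0.00281). Their values did not overlap between the marks. Notch2 (0.92, adjusted p = 0.0195) and Jag2 (0.89, 0.0256) passed the p but not the size. The Delta genes gave 0.24 for Dll1, -0.06 for Dll3 and -0.30 for Dll4 (adjusted p = 0.302, 0.803 and 0.19). All 9 were set against a median of 1.82 over promoter regions and 0.48 over all regions. A value above 0 compares the yields of 2 antibodies and not amounts of the marks. With the library medians set equal, the higher share of the calls in both directions went from 83.7% to 55.8%, Notch4 lost its call (0.99) and Dll1 turned to -0.36. Notch2 was called without replicate 2 of total H3K27me3 (1.13, adjusted p = 0.0214) or replicate 1 of total H3K4me3 (1.02, 0.0235). Over the narrower regions all 9 genes were higher in H3K4me3, by 0.61 (Dll4) to 2.66 (Notch1), with 2.55 at Notch2, 1.66 at Jag2 and 1.24 at Dll3. These differences were not tested.

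In the WT clones, 5 of 9 members were called higher in H3K4me3, against 28.3% of 57443 regions. Notch2 was higher by 3.82 (adjusted p = 5.99e-06, limma), Notch3 by 3.78, Jag1 by 3.23, Notch1 by 3.04 and Notch4 by 2.96. Their H3K27me3 values lay below their H3K4me3 values in both clones. Jag2 (1.75, adjusted p = 0.0823), Dll3 (1.18), Dll1 (0.29) and Dll4 (-0.78) were not called, against a promoter median of 3.46. None of the 9 was called when the total H3K27me3 library of either WT clone was left out, where the differences stayed at 2.68 to 4.12 for the 5 genes and adjusted p was 0.0685 to 0.299. With the clone as a block, since both marks came from the same clones, Jag2 was called as well (adjusted p = 3.13e-04), and with library medians set equal Jag2 (1.14, 0.0208) and Dll4 (-1.39, 0.00435) were, while the higher share of the calls in both directions went from 79.6% to 56.3%, with 16266 and 16652 higher calls and 4176 and 12941 lower. Without the total H3K4me3 library of clone 58, Jag2 (2.31, 0.00593) and Dll3 (1.73, 0.0191) were called.

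The order of the antibodies was compared next. In E14 cells the mean of K27-K4 was above that of K4-K27 at all 9 genes, by 0.49 (Dll4) to 1.03 (Notch3) log2 units, with a median of 0.86 against 0.82 over promoter regions. Notch3 stood at -0.14 in K4-K27 and 0.94 in K27-K4 in replicate 1, and at 1.04 and 2.01 in replicate 2. Dll4 in replicate 1 had the opposite sign (2.29 in K4-K27 and 2.19 in K27-K4). None of the 9 passed the test (limma adjusted p = 0.799 to 0.803), and neither did any of the 38918 regions (0%), of which 1074 had an unadjusted p under 0.05. With the replicate number as a block, 2499 regions were called and still 0 members.

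In the WT clones the sign was the opposite at the receptors and the Jagged genes. Over the WT reChIP regions, Notch3 stood at 4.05 and 2.97 in K4-K27 and at 1.81 and 1.70 in K27-K4 in clones 57 and 58, a difference of -1.75 (95% interval -2.88 to -0.62, limma adjusted p = 0.0138). Notch2 stood at 4.00 and 2.37 against 2.10 and 1.17, a difference of -1.55 (-2.66 to -0.45, adjusted p = 0.0283). At both, every K27-K4 value was below every K4-K27 value. These 2 of 9 members were called lower, where 19.8% of 57443 regions were, and the median of promoter regions was -1.54 (0.08 over all regions). Notch4 (-1.62, adjusted p = 0.135) and Notch1 (-1.15, 0.174) were not called, nor were Jag2 (-0.85) and Jag1 (-0.77). The Delta genes gave 0.48 for Dll4, 0.04 for Dll1 and -0.13 for Dll3, which were closer to the median of all regions than to that of promoters. Both calls were lost without K4-K27 of clone 57 (Notch2 -0.74, Notch3 -1.21), without K27-K4 of clone 57 (-2.02, -1.81) or of clone 58 (-1.09, -1.69), and in a fit without the variance trend (adjusted p = 0.16 and 0.0908). Notch4 was called without K4-K27 of clone 58 (-1.90, adjusted p = 0.0428). With library medians set equal, Notch2 had an adjusted p of 0.0552 (-1.13) and the higher share of the calls in both directions went from 19.4% to 38.9%. With the clone as a block, Notch1 was called too (adjusted p = 1.4e-07).

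**Figure D4:**
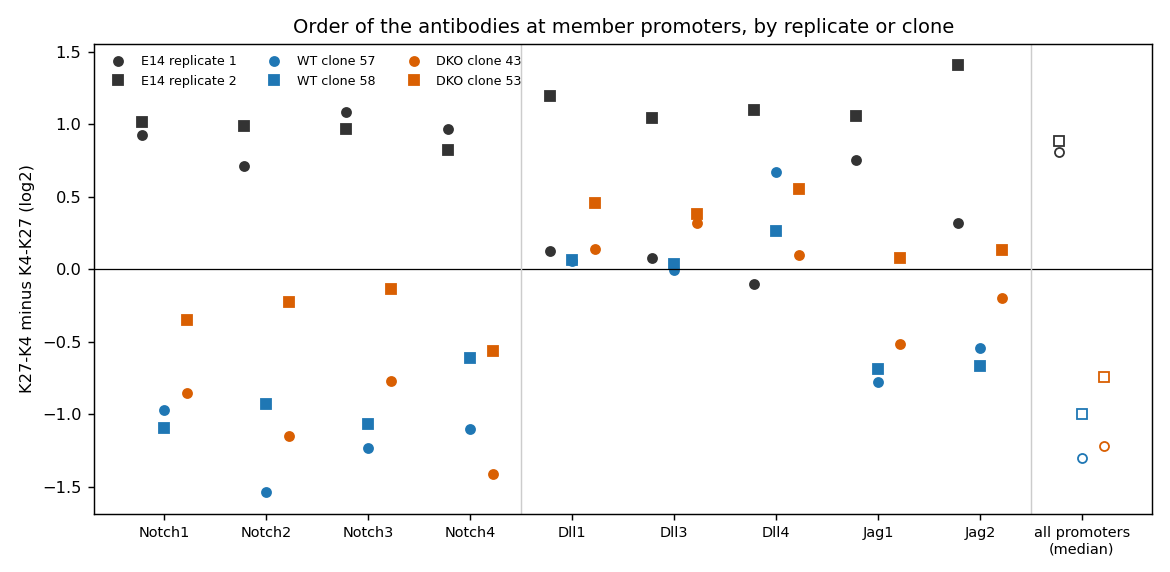
K27-K4 minus K4-K27 of each gene in log2 units over its E14 K27-K4 region, 1 point for each E14 replicate and each WT and DKO clone, with the median of promoter regions as open symbols. The promoter medians were 0.81 and 0.88 in E14, -1.30 and -1.0 in WT and -1.22 and -0.75 in DKO, and every point of the receptors and Jagged genes has the sign of the promoter median in E14 and WT.

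The loss of DPPA2 and DPPA4 was tested in the WT and DKO clones for each ChIP, over the regions listed in either set of clones. None of the members with a region was called in any ChIP: 0 of 9 in total H3K4me3, where 2.72% of 64063 regions were called, 0 of 6 in total H3K27me3 (2.75% of 53286), 0 of 9 in K4-K27 (1.19% of 53855) and 0 of 8 in K27-K4 (2.26% of 59260). At an unadjusted p under 0.05 (limma) the members were 0, 1, 0 and 0 in turn, and the regions 6803, 8206, 8503 and 11203. Values of the genotypes did not overlap at 2 of 9 members in total H3K4me3 (30.5% of regions), 3 of 6 in total H3K27me3 (44.5%), 1 of 9 in K4-K27 (38.9%) and 2 of 8 in K27-K4 (51.9%). The median difference of the members, DKO minus WT, was -0.24, 0.43, -0.09 and 0.28, beside 0.13, 0.11, -0.01 and -0.15 over all regions. The 0.43 of total H3K27me3 includes Jag1 and Jag2, whose regions were listed in the DKO clones alone, and it was 0.14 over the members with a region in the WT table.

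The 3 members that did not overlap in total H3K27me3 over the tested regions were Jag1, Jag2 and Dll1. Jag1 stood at -0.91 and -0.49 in WT clones 57 and 58 and at 0.54 and 0.14 in DKO clones 43 and 53, a difference of 1.04 (95% interval -0.13 to 2.22, limma adjusted p = 0.404). Jag2 stood at 0.47 and 0.18 against 1.19 and 1.11, a difference of 0.82 (0.0027 to 1.64, adjusted p = 0.323). Dll1 stood at 1.24 and 0.78 against 1.64 and 1.25 (0.43, adjusted p = 0.674). At Jag1 and Jag2 both DKO clones were above both WT clones, and at Dll1 they were only over this region, which came from the DKO table: over the WT region (1.73 and 1.31 in WT, 1.90 and 1.65 in DKO) the genotypes overlapped. The Jag1 and Jag2 regions were listed in the DKO clones alone, so they entered the test through the genotype in which they were higher, as the Notch3 region did in K27-K4. The E14 K27-K4 regions were not chosen from either genotype. Over them Jag1 stood at -0.22 and -0.58 in WT and at 0.83 and 0.49 in DKO. Jag2 stood there at 0.17 and -0.08 against 0.84 and 0.84. Neither gene overlapped, and these differences were not tested. Over the tested regions, Dll3 (0.33), Notch2 (0.43) and Dll4 (0.03) overlapped between the genotypes. The tested Notch2 region came from the DKO table, and over the WT region Notch2 stood at 0.93 and 0.68 in WT and 1.30 and 0.33 in DKO. Over the E14 K27-K4 regions, Dll3 (1.11 and 0.44 in WT, 1.32 and 1.2 in DKO) did not overlap. Neither did Notch2 (-0.1 and -0.08, 0.58 and 0.09) or Notch3 (0.14 and -0.33, 0.40 and 0.61) there. Dll1, Dll4, Notch1 and Notch4 overlapped over those regions. These differences were not tested either.

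In total H3K4me3, Dll3 stood at 2.59 and 1.41 in WT and 1.13 and 1.06 in DKO, a difference of -0.90 (-2.26 to 0.46, limma adjusted p = 0.904). Without WT clone 58 it was -1.49 and passed the threshold (adjusted p = 0.0246), and without WT clone 57 it was -0.31 (0.615). Over the E14 K27-K4 region the genotypes overlapped at Dll3 (1.49 and 0.68 against 0.87 and 0.72). WT clone 57 was above WT clone 58 at all 9 members, as at Notch3 (3.45 and 1.95), and by more than any of the differences between the genotypes. Notch4 stood at 1.55 and 0.62 in WT and 1.80 and 1.60 in DKO (0.62, adjusted p = 1), and in K4-K27 at 1.77 and 1.21 against 2.53 and 1.87 (0.72, -0.47 to 1.90, adjusted p = 0.664). At Notch4 the genotypes thus did not overlap over these regions, but over the E14 K27-K4 region they did in both ChIPs (1.37 and 0.45 against 1.53 and 1.34, 0.67 and -0.13 against 0.91 and 0.61). In K27-K4, Notch3 stood at 1.31 and 1.00 in WT and 1.92 and 1.94 in DKO (0.78, -0.05 to 1.60, adjusted p = 0.293), and Notch2 at 1.47 and 0.77 against 1.77 and 1.71 (0.61, adjusted p = 0.408). The other 6 members overlapped in K27-K4, from -0.32 at Dll4 to 0.61 at Jag2. In total H3K4me3 and in K4-K27 the 95% interval of each of the 9 genes contained a log2 difference of 1 in at least 1 direction. So did those in K27-K4, except Dll3 (-0.75 to 0.90), and those in total H3K27me3, except Dll4 (-0.80 to 0.87). Changes of that size were thus not detectable at this spread between clones.

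**Figure D5:**
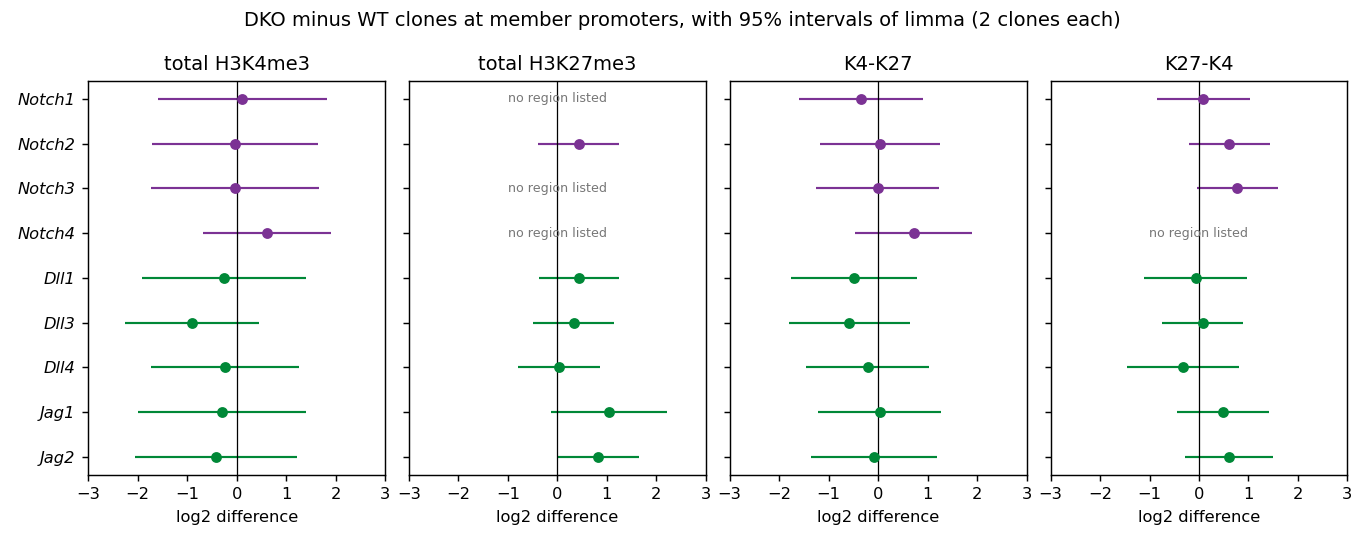
DKO minus WT of each member in each ChIP, in log2 units, with 95% intervals from limma. The intervals contain 0 with the exception of that of Jag2 in total H3K27me3 (0.0027 to 1.64, adjusted p = 0.323, limma), a region listed in the DKO clones alone.

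A list of 40 other Notch pathway genes was read in the same fits. All 40 had an E14 K27-K4 region. In E14 cells 24 of the 40 were called higher in H3K4me3 than in H3K27me3 and 0 lower, where 37.5% of all regions were called higher. The median difference of the 40 was 1.56, beside 1.82 over promoter regions. Among the proteases, Ncstn of gamma-secretase was higher by 5.61, and Adam10, Adam17, Psen2, Aph1a, Aph1b and Psenen were among the others called. Of the nuclear factors, Rbpj (4.26), Maml1 and Spen were called, and Maml2 (-0.22) and Maml3 (0.92) were not. Among the targets Hes1 (1.89) was called, and Hes5 (0.23), Hes7 (0.73), Hey1 (0.39), Hey2 (0.08) and Heyl (-0.93) were not. The glycosyltransferases Pofut1, Poglut1, Mfng and Rfng, the ubiquitin ligases Mib1, Mib2 and Neurl1a and the modulators Numb, Numbl, Itch, Dtx2 and Dtx3 were called. Lfng (0.09), Neurl1b (-0.33), Furin (0.38), Dtx1 (0.12), Dtx4 (0.09), Nrarp (0.08) and the atypical ligands Dlk1 (-0.70), Dlk2 (-0.20) and Dner (0.33) were not, and with Dll1, Dll3 and Dll4 they lay within 1 log2 unit of 0.

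In the WT clones 23 of the 40 were called higher in H3K4me3, the 24 above without Mfng, where 28.3% of all regions were. In the order of antibodies 18 of the 40 were called lower in K27-K4 than in K4-K27, where 19.8% of all regions were, and the median of the 40 of -1.12 stood beside the promoter median of -1.54. They included Pofut1, Poglut1, Rfng, Mib1, Mib2, Adam10, Adam17, Psen2, Ncstn, Aph1a, Psenen, Rbpj, Maml1, Numb, Itch, Dtx2 and Dtx3. In E14 K27-K4, Dner (3.07), Hes7 (3.07), Lfng (3.01) and Dtx1 (3.01) reached the level of Dll1 (3.12) and Dll4 (2.93), and Poglut1 (0.76) and Psenen (0.87) were near Notch4 (0.76). The other highest and lowest genes of a role were Maml3 (2.95) and Rbpj (1.2), Aph1b (2.70), Neurl1b (2.48) and Mib2 (1.73), and, as the lowest of their roles, Dlk1 (2.01), Hes1 (1.79) and Dtx2 (1.29). Between WT and DKO, 0 of the pathway genes was called in any ChIP, of 39 tested in total H3K4me3, 13 in total H3K27me3, 40 in K4-K27 and 26 in K27-K4. At an unadjusted p under 0.05 (limma) they were 1, 0, 2 and 3 in turn.

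The pattern of each member over the 26 libraries was compared with those of up to 17272 genes with a separate region, after subtracting library medians and as a description only, since all points share libraries, depth and the 5 kinds of ChIP. The gene most like Dll4 was Prdm12 (Pearson r = 0.99), that most like Dll1 was Foxp2 (0.99), and 695 and 626 genes had r above 0.95 with them. For Jag1 it was Gm32139 (0.99), for Dll3 Gadd45g (0.98), for Notch3 Mt1 (0.97) and for Notch2 Zhx3 (0.96). Notch4 (Agrn, 0.94) and Jag2 (Gdf1, 0.93) had 0 genes above 0.95. Dll3 had 128, Jag1 59, Notch3 7 and Notch2 5.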

How the data were processed

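The labels describe 26 ChIP-reChIP and in-line total libraries, read from 12 region tables (240 columns used). The authors trimmed reads with Trim Galore 0.6.6, aligned them to mm10 with BWA 0.7.13 and marked duplicates with Picard 2.6.0, with SAMtools 1.9. They deposited log2 RPM values (reads scaled to library size) per kb of region from SeqMonk, with mapping quality over 20, duplicates kept, 0 reads entered as 0.9 reads and no IgG-IgG subtraction. The H3K4me3 antibody is also described as detecting H3K4me2. The tables hold 32 columns of no sample here, which were not used.

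Samples were grouped by their labels. Regions were compared with limma 3.58.1 in R 4.3.3 (lmFit, eBayes with variance trend and robust estimation; Benjamini-Hochberg over all regions of a comparison), which was also tested on simulated data. The design foresaw a count test only for files of counts. Figures and summaries used matplotlib 3.10.9, pandas 2.3.3, numpy 2.4.6 and scipy 1.17.1 under Python 3.11.15. Library totals, recovered from the steps of the low values, were 6741244 to 47903464 reads, and replicates had no identical values. In E14 total H3K27me3 counting error is close to the spread between replicates (chi-square 1.28 per region). In the other groups it is below that spread (chi-square 2.21 to 9.90 per region). The rule for named genes took all 9 members, every pathway gene called in E14 or WT cells, the highest and lowest of each role and the gene most like each member, of which some are not reported here. Members, lists and tests were chosen with earlier results of these data known. E14 replicate numbers mark a shared sequencing batch and WT numbers a clone, so they pair the samples (correlation of deviations 0.34 for E14 reChIPs, -0.08 for E14 totals, 0.07 and 0.0015 for WT). Alternatives were library centring, no variance trend, other regions or promoter widths, all clone libraries in 1 fit, a block and leaving out libraries.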

Additional observations from a re-analysis of the deposited data

Results flagged for a closer look

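The difference between K27-K4 and K4-K27 had opposite signs in E14 cells and in the WT clones at 6 members, in every replicate and both clones. The mean over the E14 K27-K4 region was 0.97 in E14 and -1.03 in the WT clones at Notch1, 0.85 and -1.24 at Notch2, 1.03 and -1.15 at Notch3, 0.89 and -0.86 at Notch4, 0.90 and -0.73 at Jag1 and 0.86 and -0.61 at Jag2. This difference between the cells was not tested. Relative to the median of promoter regions in the same libraries, the 6 genes lay at 0.01 to 0.18 in E14 and at -0.08 to 0.54 in WT. E14 and the clones were sequenced in different batches, so batch and cells cannot be told apart. The Delta genes did not have opposite signs in every library.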

How the results depend on the processing

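With WT clone 58 left out, 1 member (Dll3) was called between WT and DKO in total H3K4me3; leaving out each clone gave 0 to 1 calls there and a median member difference of -0.79 to 0.43, and 0.25 to 0.70 in total H3K27me3. The median in total H3K27me3 was 0.14 over the regions of the WT table alone. In K4-K27, leaving out each clone gave -0.77 to 0.84 at Notch2 and -1.22 to 0.0511 at Dll3, the sign turning without WT clone 58 and WT clone 57 in turn. Between WT antibody orders, the 2 calls went to 1 with library medians centred and 0 without the variance trend, and leaving out a library gave 0 to 3. The 5 calls between WT totals became 0 to 7 with a library left out. Centring moved the median member difference between the totals to 0.32 in E14 and 2.35 in WT, and turned Dll1 to -0.36 in E14.

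The receptor minus ligand difference moved by more than the SD of its libraries as follows. Over IgG-IgG it was 0.67 (E14) and 1.45 (DKO) in total H3K4me3, 0.35 (WT) and 0.29 (DKO) in K4-K27 and -0.76 (WT) and -0.42 (DKO) in K27-K4. With means in place of medians it was 0.93 in DKO total H3K4me3, -0.83 in E14 total H3K27me3, -1.23 in WT K27-K4 and -0.16 in DKO K4-K27. Over each table's own regions, which leave out members with none (1 receptor remains in total H3K27me3 and 2 in WT K27-K4), it was 0.0602 (E14), 0.24 (WT) and 0.34 (DKO) in total H3K4me3, -0.16 (E14) and -0.67 (DKO) in total H3K27me3, -0.0776 in DKO K4-K27 and -0.43 in WT K27-K4. Over the narrower E14 H3K4me3 regions it was 0.0602 (E14) and 0.85 (DKO) in total H3K4me3, -0.94 (E14), -1.33 (WT) and -1.70 (DKO) in total H3K27me3, -0.74 (WT) and -0.40 (DKO) in K4-K27, and -1.15 (E14), -1.51 (WT) and -1.19 (DKO) in K27-K4. The causes were not tested.

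Of the members' single results, 539 alternatives left the call as it was (uncalled values that changed sign within 1 SE included), 20 lost the call, 11 gained one and the 3 given above turned the sign. Over all regions, calls between WT and DKO ranged from 74 to 6018 in total H3K4me3 (1745 in the report), 0 to 1468 in total H3K27me3 (1468), 243 to 7715 in K4-K27 (643) and 482 to 8630 in K27-K4 (1341). With the replicate block, E14 antibody order gave 2499 region calls against 0 without it, and 468 with medians centred. Apart from Notch1 and Jag2 in the WT clones, the block changed no member's call. Depth limits single values, with as few as 30 reads at Notch4 and 32 at Notch2 in a total H3K27me3 library. Alternatives named in the report with single libraries left out of E14 or WT fits, and the narrower regions, were chosen after seeing the data.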
